A study of Drosophila melanogaster with 8 samples.

Results

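The 10 genes described here act in the DNA damage checkpoint and in double-strand break repair, and their transcripts were measured in neural stem cells and neurons of the Drosophila melanogaster larval brain. They are mei-41, tefu, mus304, grp, lok, p53, mre11, rad50, nbs and okr, taken as the rows of the deposited tables that carry these gene names, and each name matched exactly 1 of the 14210 genes listed. Both cell types were sorted by flow cytometry from wild type brains late in the third larval instar: neuroblasts, the dividing stem cells, and neurons, their differentiated daughters. All samples share the transgenes asense-Gal4 and UAS-stingerGFP, which mark the cells with a nuclear green fluorescent protein under a driver of the proneural gene asense. Eggs were laid over 24 h and animals were kept for 5 more days at 25 degrees before dissection. There were 3 neuroblast replicates in 5 libraries and 2 neuron replicates in 3 libraries, with technical pairs for neuroblasts 2 and 3 and for neuron 1. How the sorting gates were set, and how many animals went into a sort, is not given in the labels.

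A broken or stalled chromosome is sensed by large protein kinases of the ATM and ATR families, which pass the signal to effector kinases that hold the cell cycle and start repair. In Drosophila the ATR kinase is mei-41, with its partner mus304 (ATRIP) and the effector grapes (grp, Chk1). The ATM kinase is tefu, which works with the break-sensing complex of mre11, rad50 and nbs and with the effector loki (lok, Chk2), and p53 turns on death and repair genes. The motor protein okr (Rad54) helps a broken end to invade an intact template in homologous recombination. Neuroblasts divide repeatedly, whereas neurons have left the cell cycle.

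Levels are given in FPKM (fragments divided by transcript length and by library total), so levels of different genes can be set side by side. A gene was tested when 2 or more biological replicates had 1 FPKM or more; 7975 genes passed, all 10 members among them, with at least 2.02 FPKM in every replicate. The FPKM of a library summed to 449268 to 753682 in neuroblasts and 321551 to 343514 in neurons. Over single-transcript genes the recovered fragments summed to between 2184305 and 16282071 per neuroblast library and between 953171 and 1443262 per neuron library. A member's value rested on 74 to 14274 fragments in a neuroblast library and on 11 to 1583 in a neuron library. The sorted cells carried their labels' markers. The 5 neuroblast markers dpn, mira, wor, ase and insc summed to 1149, 1201 and 1452 FPKM in neuroblasts 1, 2 and 3 and to 44.0 and 75.3 FPKM in neurons 1 and 2. The 5 neuron markers elav, n-syb, brp, Syt1 and Rdl summed to 102, 54.1 and 10.7 FPKM in neuroblasts and to 545 and 736 FPKM in neurons, so the neuron signal was highest in neuroblast 1 and lowest in neuroblast 3. Of 6 glial markers 1 was higher in neuroblasts and 4 in neurons, their sums being 227, 145 and 201 FPKM in neuroblasts and 94.7 and 129 FPKM in neurons, with alrm listed at 0 in neuroblast 1. The glial regulators repo and gcm averaged 0.597 ± 0.429 and 1.83 ± 1.68 FPKM in neuroblasts (SD, n = 3) and 8.81 ± 1.19 and 22.7 ± 2.33 FPKM in neurons (SD, n = 2). Eaat1, a glial glutamate transporter, averaged 65.1 ± 5.09 FPKM in neuroblasts and 9.05 ± 0.244 FPKM in neurons. The part of glial RNA in the results was not tested.

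With limma at an adjusted p under 0.05, 7 of the 10 members were called, each toward neuroblasts, and 0 toward neurons. Of all tested genes 63.3% were called, 33.4% toward neuroblasts and 29.9% toward neurons. The 7 were tefu, lok, p53, mre11, rad50, nbs and okr. The ATR kinase mei-41, its partner mus304 and the Chk1 kinase grp did not pass. All 3 neuroblast replicates lay above both neuron replicates for each of the 10 members, which held for 41.8% of tested genes. The median log2 fold change of neuroblast over neuron on the log2(FPKM + 1) scale was 1.79 over the members and 0.17 over all tested genes. In bulk samples fewer cells that express a gene and less RNA per cell cannot be told apart.

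**Figure D1:**
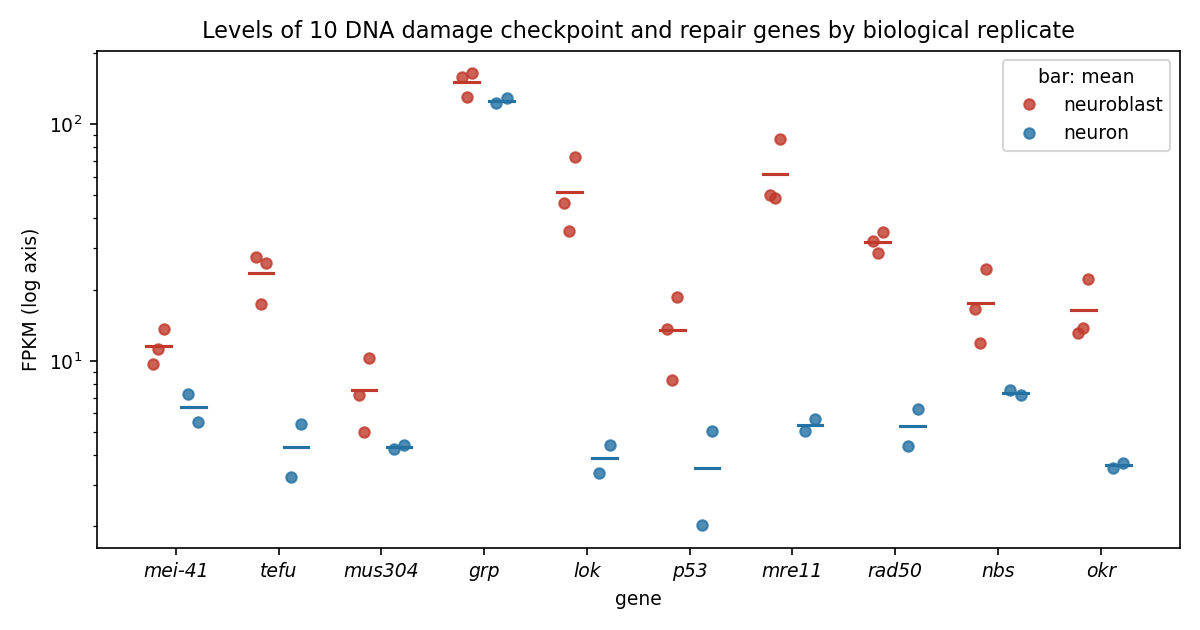
FPKM of each member on a log axis in 3 neuroblast replicates (red, left of each pair) and 2 neuron replicates (blue, right), with the mean as a bar. In neurons grp stands near 126 FPKM, while the other 9 genes lie between 2.02 and 7.52 FPKM.

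**Figure D2:**
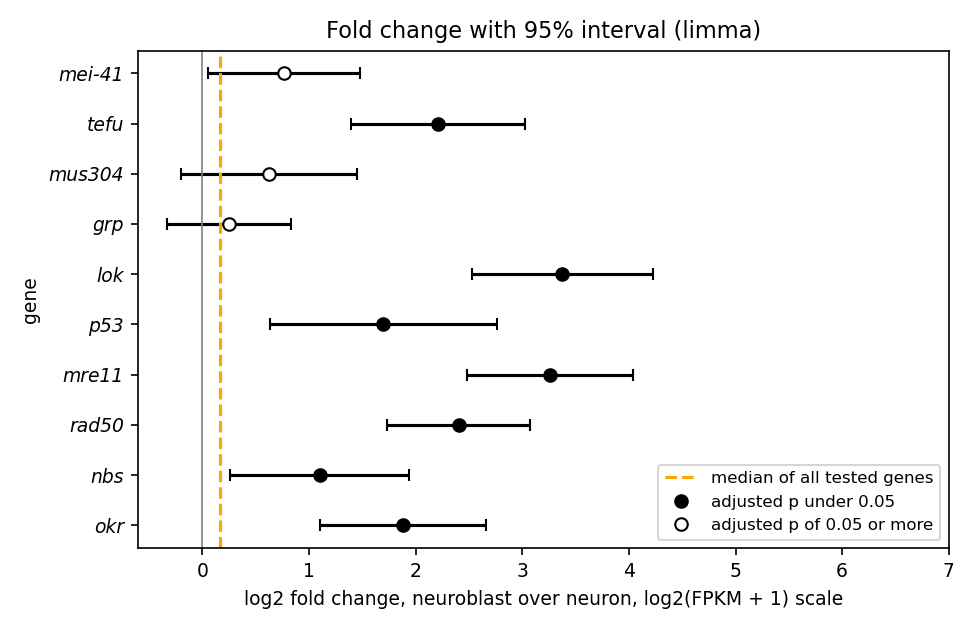
Log2 fold change of neuroblast over neuron for each member with its 95% interval from limma; filled points passed at an adjusted p under 0.05. The open points are mei-41, mus304 and grp, and the dashed line is the median of all tested genes at 0.17.

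Of the apical kinases tefu passed the test and mei-41 did not. Mei-41 (FBgn0004367, X, 16285794 to 16293601) had 9.73, 11.2 and 13.7 FPKM in neuroblasts, against 7.26 and 5.50 FPKM in neurons. The groups did not overlap, but the log2 fold change of 0.76 (SE 0.30, 95% interval 0.05 to 1.48) had a limma adjusted p of 0.0600, and neurons kept 55.2% of the neuroblast level. Its partner mus304 (FBgn0002901, 3L, 18102897 to 18105947), which brings the kinase to single-stranded DNA, had 7.16, 5.01 and 10.3 FPKM in neuroblasts, against 4.24 and 4.42 FPKM in neurons. Neuroblast 2 lay close to the neurons, and the log2 fold change was 0.62 (SE 0.35, 95% interval -0.20 to 1.45) with a limma adjusted p of 0.154. The ATM kinase tefu (FBgn0045035, 3R, 11057934 to 11067958) had 27.5, 17.3 and 25.9 FPKM in neuroblasts, against 3.24 and 5.40 FPKM in neurons. It was higher in neuroblasts by 2.21 on the log2 scale (SE 0.34, limma adjusted p 0.00174), and neurons kept 18.3% of the level. Tefu is named for the telomere fusions of its mutants, since ATM also protects chromosome ends in flies.

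Of the effector kinases, grp stayed high in both cell types and lok did not. Grp (FBgn0261278, 2L, 16680046 to 16699930) had 158, 129 and 164 FPKM in neuroblasts, against 122 and 129 FPKM in neurons. Neuroblast 2 and neuron 2 were almost level at 129.5 and 129.0 FPKM, and the log2 fold change was 0.25 (SE 0.25, 95% interval -0.33 to 0.83) with a limma adjusted p of 0.390. In neurons grp lay above 95.05% of tested genes, and in neuroblasts above 93.1%. Lok (FBgn0019686, 2L, 20061477 to 20064381) had 46.5, 35.4 and 72.5 FPKM in neuroblasts, against 3.35 and 4.40 FPKM in neurons. This was the largest change among the members, a log2 fold change of 3.38 (SE 0.36, limma adjusted p 0.000694), and 2.82% of tested genes had a larger one. Neurons kept 7.53% of the neuroblast level of lok and 83.4% of that of grp. Both genes share sequence with neighbours: lok overlaps vls by 121 bases on the opposite strand, and vls had 76.0, 66.6 and 91.5 FPKM in neuroblasts against 13.1 and 11.4 FPKM in neurons. The grp locus contains squ, with 24.9, 11.6 and 19.2 FPKM in neuroblasts against 9.86 and 19.03 FPKM in neurons, as well as CG31807, at no more than 1.01 FPKM in any replicate. It also contains CG33552, on the same strand as grp, with 8.88, 3.67 and 1.45 FPKM in neuroblasts against 9.20 and 13.2 FPKM in neurons (log2 fold change -1.30, limma adjusted p 0.0846). The libraries mark strand, but no source used here says whether reads were assigned by it, so values in the shared stretches are uncertain.

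The transcription factor p53 (FBgn0039044, 3R, 18875379 to 18879804), which acts below lok in the death response to irradiation in flies, had 13.6, 8.32 and 18.6 FPKM in neuroblasts, against 2.02 and 5.05 FPKM in neurons. Its replicates spread widely in both groups, the highest over the lowest being 2.23 in neuroblasts and 2.50 in neurons, and the neuron values rested on 11 to 21 fragments a library. The log2 fold change was 1.70 (SE 0.45, limma adjusted p 0.0142). The call was lost without neuron replicate 1 (1.196, limma adjusted p 0.126) and with no filter on low values (adjusted p 0.0832). The gustatory receptor gene Gr94a lies within the p53 locus on the opposite strand and was at 0.0122 FPKM in neuroblast 3 and listed at 0 in the other replicates.

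All 3 subunits of the break-sensing complex passed toward neuroblasts. The nuclease mre11 (FBgn0020270, 2L, 11282094 to 11284350) had 49.98, 48.6 and 86.4 FPKM in neuroblasts, against 5.06 and 5.68 FPKM in neurons. Its log2 fold change was 3.26 (SE 0.33, limma adjusted p 0.000631), and neurons kept 8.71% of the level. The coiled-coil ATPase rad50 (FBgn0034728, 2R, 18308544 to 18312979) had 32.0, 28.5 and 35.1 FPKM in neuroblasts, against 4.35 and 6.24 FPKM in neurons. Neuroblasts varied least here, and the log2 fold change was 2.40 (SE 0.28, limma adjusted p 0.000874). The adaptor nbs (FBgn0261530, 3L, 9713514 to 9716308), which links the complex to the ATM kinase, had 16.5, 11.9 and 24.4 FPKM in neuroblasts, against 7.52 and 7.14 FPKM in neurons. Its log2 fold change of 1.10 (SE 0.35, limma adjusted p 0.0297) did not survive the omission of neuroblast replicate 1 (1.12, adjusted p 0.0540), neuron replicate 1 (1.13, adjusted p 0.124) or neuron replicate 2 (1.07, adjusted p 0.145). The replicate block gave 0.85 (limma adjusted p 0.0801). Nbs overlaps CG14174 by 51 bases on the opposite strand, and CG14174 had 16.4, 10.7 and 23.0 FPKM in neuroblasts against 1.44 and 1.57 FPKM in neurons.

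The recombination motor okr (FBgn0002989, 2L, 2989594 to 2992761) had 13.2, 13.8 and 22.2 FPKM in neuroblasts, against 3.53 and 3.70 FPKM in neurons. Its log2 fold change was 1.88 (SE 0.33, limma adjusted p 0.00269), and neurons kept 22.1% of the level. It overlaps Bem46 by 501 bases on the opposite strand, which had 11.7, 4.67 and 13.5 FPKM in neuroblasts and 4.01 and 5.05 FPKM in neurons and did not pass the test (log2 fold change 0.87, limma adjusted p 0.134).

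The calls of tefu, lok, mre11, rad50 and okr held under each of the 19 alternatives, and the sizes moved with the scaling of the libraries. Against 0.17 as deposited, the median over tested genes was -0.53 once libraries had the same sum of protein-coding FPKM, -0.12 under upper quartile scaling and -0.06 under median ratio scaling. With the protein-coding sum lok stood at 2.70, mre11 at 2.56, rad50 at 1.71, tefu at 1.54, okr at 1.22 and p53 at 1.06, and all 6 still passed. Nbs stood at 0.40 (limma adjusted p 0.207), mei-41 stood at 0.08, mus304 at -0.03 and grp at -0.51 (limma adjusted p 0.0651). The sign of the grp difference also turned with upper quartile scaling, at -0.06, and quantile normalization, at -0.41. One flow cell, read from the names of the files, holds neuroblasts 1 and 2 together with neuron 1. On it alone the log2 fold changes were 3.26 for lok, 3.07 for mre11, 2.56 for rad50, 2.43 for tefu, 1.95 for p53 and 1.69 for okr, which passed with limma. There they were 0.82 for nbs, 0.47 for mei-41, 0.42 for mus304 and 0.23 for grp, which did not pass. This fit has a single neuron replicate, assumed to vary like the neuroblasts.

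**Figure D3:**
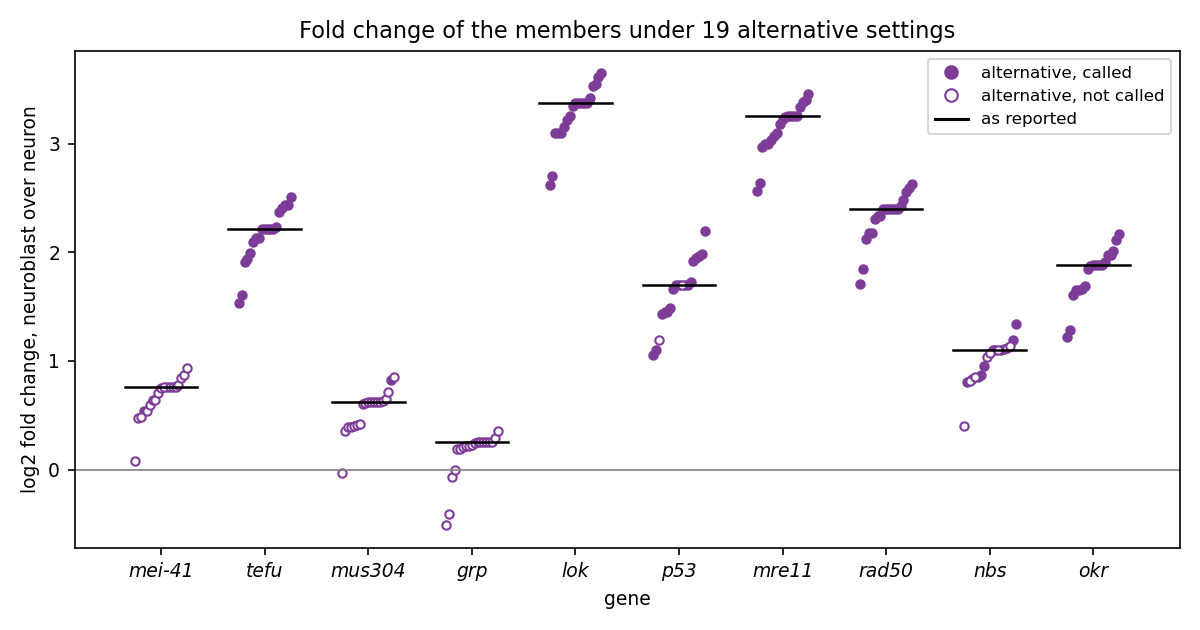
Log2 fold change of neuroblast over neuron for each member under 19 alternative settings (points, sorted; filled where called) with the reported value as a line. Tefu, lok, mre11, rad50 and okr are filled throughout, and grp lies on both sides of 0.

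Ratios between 2 members within a replicate do not depend on the scaling. The ratio of grp to lok was 3.41, 3.66 and 2.25 in neuroblasts, against 36.4 and 29.3 in neurons, so the Chk1 transcript led the Chk2 transcript in both cell types and by far more in neurons. The ratio of mei-41 to tefu was 0.353, 0.649 and 0.528 in neuroblasts, against 2.24 and 1.02 in neurons. The ATM transcript was the more abundant in each neuroblast replicate. The ATR transcript led in neuron 1. In neuron 2 mei-41 and tefu were almost level at 5.50 and 5.40 FPKM, from 134 and 118 fragments. Mei-41 to mus304 stood at 1.36, 2.24 and 1.33 in neuroblasts, against 1.71 and 1.24 in neurons, and these overlapped. Within the break-sensing complex, mre11 to nbs was 3.02, 4.07 and 3.54 in neuroblasts, against 0.673 and 0.795 in neurons. Rad50 to nbs was 1.94, 2.39 and 1.44 in neuroblasts, against 0.579 and 0.873 in neurons. Nbs was thus the least abundant transcript of the complex in each neuroblast replicate and had the highest value in each neuron replicate. In neuron 2 its lead over rad50 was small, at 7.14 against 6.24 FPKM, with a Cufflinks upper bound of 7.68 for rad50. There mre11 stood at 5.68 FPKM with an upper bound of 7.57, which also lay above the nbs value. The technical pair of neuron 1 differed 1.52-fold for mre11 and 1.37-fold for rad50. On the log2 scale neuroblasts differed from neurons by -3.43 for grp to lok, -1.61 for mei-41 to tefu, 2.27 for mre11 to nbs, 1.404 for rad50 to nbs, 0.86 for mre11 to rad50 and 0.13 for mei-41 to mus304. The 2 groups did not overlap for the first 5. The exact two-sided permutation test over 3 against 2 replicates gave p = 0.2 for each of these 5, the smallest p the design allows, and p = 0.8 for the last. Adjusted over the 6 ratios the exact p was 0.24 and 0.8.

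**Figure D4:**
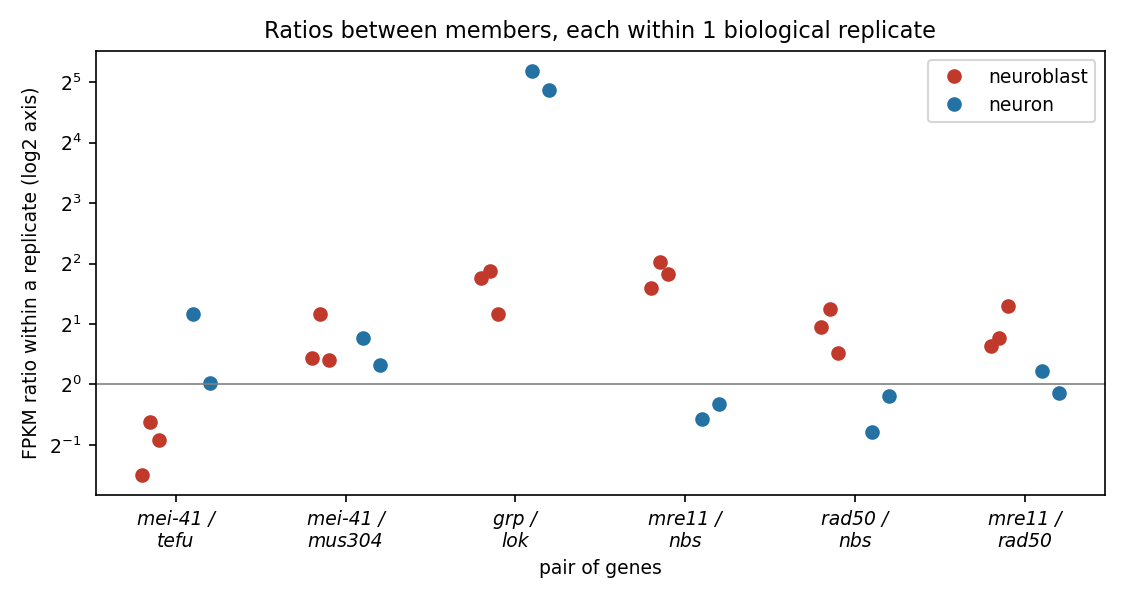
FPKM ratio of 2 members within each replicate on a log2 axis, with neuroblasts in red and neurons in blue. The groups stand apart for all pairs but mei-41 to mus304, and grp to lok lies at 29.3 and 36.4 in neurons.

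In neuroblasts grp led at 151 ± 18.4 FPKM (SD, n = 3), followed by mre11 at 61.6 ± 21.4, lok at 51.5 ± 19.1, rad50 at 31.9 ± 3.29 and tefu at 23.6 ± 5.49. Below them nbs stood at 17.6 ± 6.29, okr at 16.4 ± 5.04, p53 at 13.5 ± 5.12, mei-41 at 11.6 ± 1.99 and mus304 at 7.498 ± 2.67 FPKM. The replicate ranges of neighbours in this order overlapped except between grp and mre11, lok and rad50, and rad50 and tefu. In neurons grp led at 126 ± 4.84 FPKM (SD, n = 2), and the next was nbs at 7.33 ± 0.262 FPKM. After nbs came mei-41 at 6.38 ± 1.25, mre11 at 5.37 ± 0.442, rad50 at 5.29 ± 1.33, mus304 at 4.33 ± 0.127, tefu at 4.32 ± 1.53, lok at 3.88 ± 0.737, okr at 3.62 ± 0.124 and p53 at 3.54 ± 2.14 FPKM. From nbs to p53 the ranges of all neighbours in this order overlapped.

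Neuroblast replicates also differed among themselves. Neuroblast 3 had the highest value for 9 of the 10 members, tefu being the exception, and for 52.4% of tested genes. Neuroblast 2 had the lowest value for 8 members, all but mei-41 and okr, and for 42.7% of tested genes. Neuroblast 3 was the replicate with the lowest sum of neuron markers, at 10.7 FPKM, and the highest sums of neuroblast markers, at 1452 FPKM, and of the 6 MCM helicase subunits, at 1933 FPKM against 1232 and 1128 FPKM in neuroblasts 1 and 2. The part of these in the members' spread was not tested. Without neuroblast replicate 3 the limma count of members called was 7. In neurons the 5 neuroblast markers stood at 1.11% to 43.3% of their neuroblast level, with a median of 5.36% and ase, the gene of the driver, the highest, while the MCM subunits stood at 1.57% to 3.05%. The members stood at 7.53% to 83.4%, with a median of 24.1%.

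The authors' deposited table of neuroblast over neuron lists 3532 genes with an adjusted p of at most 0.00995. Of these, 1702 were higher in neuroblasts and 1830 in neurons, beside 14210 genes listed in the series. Of the members, 6 appear in the authors' deposited table, with folds of 11.2 for mre11, 10.9 for lok, 6.10 for rad50, 5.50 for tefu, 3.99 for okr and 3.80 for p53. Mei-41, mus304, grp and nbs are not in the authors' deposited table.

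Beyond the 10 members, 13 lists of checkpoint, cell death, repair and telomere genes held 78 genes, all tested. With limma 53 of them passed toward neuroblasts, 6 passed toward neurons and 19 did not pass. Among the 53 were CG32251, Fancl, spn-D, Rad51D and mms4, and among the 6 was hid, listed as W. These met the filter only through the group where they were higher, and the pooled counts were not redone without such genes. Of all tested genes 33.4% passed toward neuroblasts and 29.9% toward neurons. The counts of single lists below stand beside the same shares unless an alternative setting is named. The median log2 fold change was 1.53, against 0.17 over all tested genes. Of the 6 toward neurons, 4 were death genes linked to p53, and the others were Brca2 and Thd1. With the protein-coding sum 1744 of the 7975 tested genes passed toward neuroblasts and 3493 toward neurons, with a median of -0.53. There the counts of listed genes were 39 toward neuroblasts and 12 toward neurons and their median 0.85. Without neuron replicate 2 they were 40 toward neuroblasts and 3 toward neurons. For scale, all 6 MCM helicase subunits, which open DNA at replication forks, were higher in neuroblasts with a median of 5.04. Genes of these lists that are given below as not passing were picked after their values were seen, as were rpr, spn-D and mms4.

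**Figure D5:**
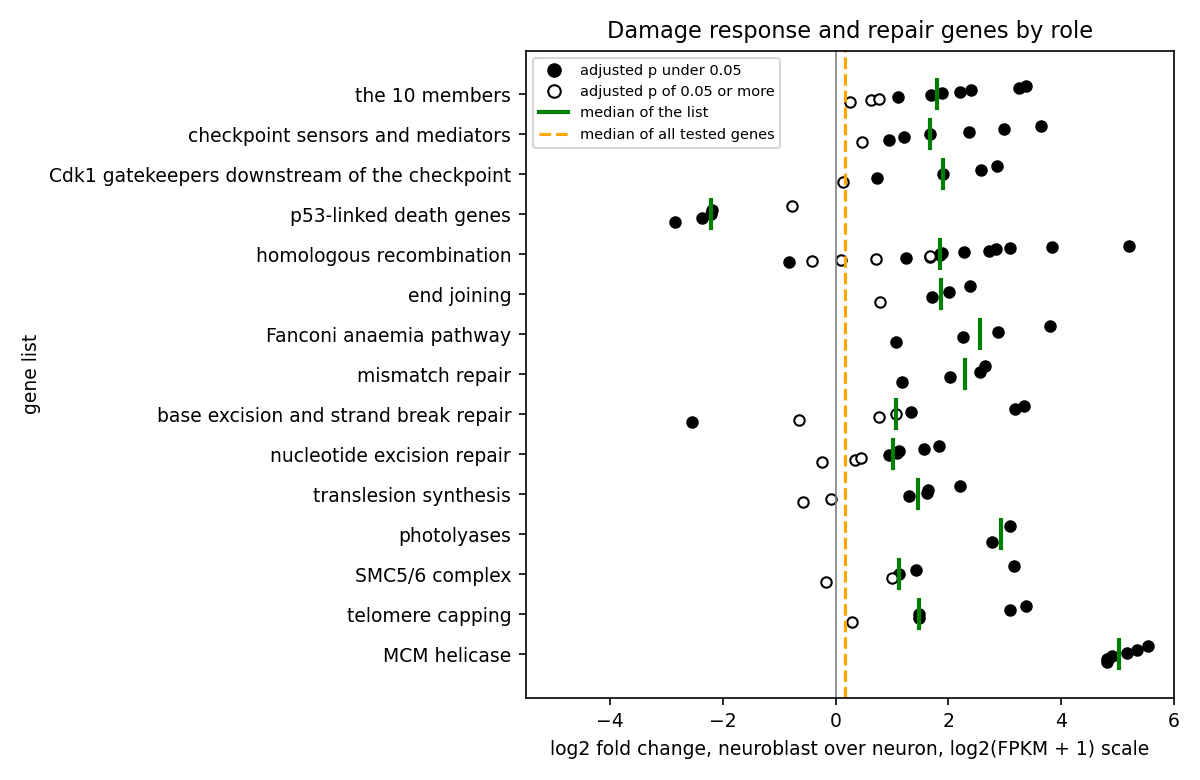
Log2 fold change of neuroblast over neuron for each gene of the 10 members, 13 further lists and the MCM helicase (filled: adjusted p under 0.05; green bar: median of the list). Most lists have medians from 1.02 to 2.93, the death genes lie at -2.21 and the MCM subunits at 5.04; spn-D and Rad51D, listed at 0 in neurons, have a plotted value that depends on the pseudocount.

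Of 7 checkpoint sensors and mediators 6 were higher in neuroblasts and 0 in neurons. The count toward neuroblasts was 4 with the protein-coding sum and 5 with the replicate block and with the first technical replicate only. It was also lower when either neuron replicate was left out. CG32251, which the reference names Claspin, the adaptor through which ATR reaches Chk1, had 24.9, 17.5 and 7.38 FPKM in neuroblasts against 0.250 and 0.298 FPKM in neurons (log2 fold change 3.64, SE 0.49, limma adjusted p 0.00114). In the same neuron replicates grp stood at 122 and 129 FPKM. CG32251 lay under 1 FPKM in both, so it entered the test only through the neuroblast replicates. Rad1, a subunit of the clamp loaded at damaged DNA, had 20.5, 16.9 and 31.0 FPKM in neuroblasts against 1.85 and 2.02 FPKM in neurons (log2 fold change 2.99, limma adjusted p 0.000818). The chromatin mediator mu2 had a log2 fold change of 2.37 (limma adjusted p 0.000883). Hus1-like, another clamp subunit, did not pass, at 20.8 ± 11.4 FPKM in neuroblasts and 13.5 ± 2.08 FPKM in neurons (SD, n = 3 and 2).

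The checkpoint acts on the mitotic kinase Cdk1, and 4 of the 5 genes listed for this step were higher in neuroblasts and 0 in neurons. The activating phosphatase stg (Cdc25) had 284, 236 and 265 FPKM in neuroblasts against 26.8 and 46.2 FPKM in neurons (log2 fold change 2.85, SE 0.30, limma adjusted p 0.000683). The inhibitory kinase wee had a log2 fold change of 1.91 and Cdk1 itself, listed as cdc2, of 2.59, with limma adjusted p-values of 0.00169 and 0.00183. The fourth, the inhibitory kinase gene Myt1, named after its values were seen, had 13.5 ± 1.08 FPKM in neuroblasts and 7.73 ± 0.595 FPKM in neurons (log2 fold change 0.73, limma adjusted p 0.0492). The Myt1 call was lost in 12 of the 19 alternatives, among them the omission of neuroblast replicate 1 or 2 or of neuron replicate 1 or 2, and the count was then 3. The germline Cdc25 gene twe did not pass, at 5.54 ± 0.333 FPKM in neuroblasts and 5.02 ± 0.835 FPKM in neurons.

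Homologous recombination genes went mostly with okr. Of 16, 11 passed toward neuroblasts, 1 toward neurons and 4 did not pass, with a median of 1.85. The count toward neuroblasts fell without neuron replicate 2 and rose without neuron replicate 1. Without spn-D and Rad51D, listed at 0 in both neuron replicates, 9 of 14 passed toward neuroblasts and 1 toward neurons. The median was then 1.76. These 2 genes and mms4, at 0.648 and 0 FPKM in neurons, entered the test only through the neuroblast replicates. The filter thus largely set their direction. The 9 still hold mms4 and a gene not named here that also had fewer than 2 neuron replicates at 1 FPKM. The single-strand binding subunit RPA2 had 160, 184 and 238 FPKM in neuroblasts against 7.09 and 2.34 FPKM in neurons (log2 fold change 5.21, SE 0.41, limma adjusted p 0.000325). Rad51D, which the reference names Xrcc2, had 4.57, 2.84 and 4.34 FPKM in neuroblasts and was listed at 0 in both neuron replicates. Brca2, a mediator of recombination, was the exception toward neurons, at 4.10, 3.26 and 2.91 FPKM in neuroblasts against 7.01 and 6.53 FPKM in neurons (log2 fold change -0.82, limma adjusted p 0.0363). The Brca2 call was lost in 10 of the 19 alternatives, among them the omission of neuroblast replicate 1 or 2 or of neuron replicate 1 or 2.

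All 4 Fanconi anaemia genes, which act on crosslinks, were higher in neuroblasts, and 3 of them passed with the protein-coding sum. Fewer than 4 also passed when either neuron replicate was left out. Fancl, the ubiquitin ligase subunit, stood at 19.1 ± 4.83 FPKM in neuroblasts and 0.435 ± 0.361 FPKM in neurons. Fancl lay under 1 FPKM in both neuron replicates, so it entered the test only through the neuroblast replicates. FANCI had a log2 fold change of 2.88 and Fancd2 of 2.26. All 4 mismatch repair genes were higher in neuroblasts, with log2 fold changes of 2.64 for Pms2 and 2.56 for Msh6. The mismatch repair count was 3 with the protein-coding sum, with no filter and with the replicate block. It was also lower when either neuron replicate was left out. Of 4 end joining genes 3 passed toward neuroblasts and 0 toward neurons: the Ku subunits Ku80 at 2.39 and Irbp (Ku70) at 2.02, and the polymerase mus308 at 1.72. Lig4, the ligase gene of the list, did not pass, at 9.56 ± 3.05 FPKM in neuroblasts and 5.05 ± 0.121 FPKM in neurons. Adjusted p from limma ran from 0.000498 for Fancl to 0.00220 for Fancd2 over the 8 calls named.

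Of 7 base excision and strand break repair genes 3 passed toward neuroblasts and 1 toward neurons. The endonuclease Rrp1 stood at 343 ± 81.2 FPKM in neuroblasts and 36.2 ± 4.68 FPKM in neurons, and the flap endonuclease Fen1 at 48.7 ± 21.3 FPKM in neuroblasts and 3.74 ± 1.19 FPKM in neurons (SD, n = 3 neuroblast and 2 neuron replicates). The thymine DNA glycosylase Thd1 went toward neurons, at 24.9, 9.63 and 7.54 FPKM in neuroblasts against 52.7 and 111 FPKM in neurons (log2 fold change -2.54, limma adjusted p 0.00592). Without neuron replicate 2 the Thd1 call was lost. With the protein-coding sum 2 base excision genes passed toward neuroblasts and 2 toward neurons, and without neuron replicate 1 the count toward neuroblasts was 2. Of 8 nucleotide excision repair genes 5 passed toward neuroblasts and 0 toward neurons, with pic (DDB1) at 1.84, Ercc1 at 1.57 and mus210 (XPC) at 1.13. The count was 2 without neuron replicate 1 and 2 without neuron replicate 2, and with the protein-coding sum 1 passed toward neuroblasts and 1 toward neurons. The mus210 call was lost without neuron replicate 1 and the Ercc1 call without neuron replicate 2. Of 6 translesion synthesis genes 4 passed toward neuroblasts and 0 toward neurons, with rev7 at 2.21, mus205 at 1.65 and DNApol-eta at 1.61. Without neuron replicate 1 the rev7 call was lost and 2 translesion genes passed. Both photolyases, which reverse ultraviolet damage by light, were higher in neuroblasts, phr at 3.09 and phr6-4 at 2.78. Over the 8 genes named by fold change alone, adjusted p from limma ran from 0.000834 for phr to 0.0117 for mus210.

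Of 5 genes of the SMC5/6 complex, which holds damaged chromatids together, 3 passed toward neuroblasts and 0 toward neurons, with MAGE at 3.17, CG5524, which the reference names SMC6, at 1.43 and cerv at 1.13 (limma adjusted p 0.000496, 0.00282 and 0.0403). The cerv call was lost in 9 of the 19 alternatives, among them the omission of neuroblast replicate 1 or 3 or of neuron replicate 1 or 2. Of 5 telomere capping genes, which in flies guard chromosome ends beside the ATM kinase and the mre11 complex, 4 passed toward neuroblasts and 0 toward neurons. Cav, which encodes the cap protein HOAP, had 50.5, 27.0 and 66.6 FPKM in neuroblasts against 2.15 and 5.39 FPKM in neurons (log2 fold change 3.37, limma adjusted p 0.00135), and ver and moi had log2 fold changes of 3.10 and 1.48 (limma adjusted p 0.000915 and 0.00368).

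Of the 5 death genes linked to p53, 0 passed toward neuroblasts and 4 toward neurons, with a median log2 fold change of -2.21. The death inducer skl had 5.90, 5.98 and 6.14 FPKM in neuroblasts against 26.3 and 37.8 FPKM in neurons (log2 fold change -2.21, SE 0.29, limma adjusted p 0.00109). Grim had 4.02, 2.95 and 1.36 FPKM in neuroblasts against 24.8 and 25.2 FPKM in neurons (log2 fold change -2.86, limma adjusted p 0.00119). The gene hid, listed as W, had 1.43, 0.273 and 0.0253 FPKM in neuroblasts against 4.71 and 7.00 FPKM in neurons (log2 fold change -2.20, limma adjusted p 0.00329). Only neuroblast 1 reached 1 FPKM for hid, so hid entered the test only through the neuron replicates. The fourth, rpr, had 3.88, 1.05 and 0.168 FPKM in neuroblasts against 6.33 and 17.8 FPKM in neurons (log2 fold change -2.37, limma adjusted p 0.0172), and its call was lost without neuron replicate 2. Grim, hid and rpr were highest among neuroblasts in replicate 1 and lowest in replicate 3, the order of the summed neuron markers at 102, 54.1 and 10.7 FPKM, and the part of neuron RNA in these neuroblast values was not tested. The cytokine gene egr did not pass, at 8.20 ± 3.28 FPKM in neuroblasts and 14.4 ± 4.12 FPKM in neurons.

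The genes outside the members whose values over the 5 replicates lay nearest to the members' mean profile, by Euclidean distance of centred log2(FPKM + 1) values, were bic, CG16787 and CG6724, at distances of 0.07, 0.10 and 0.10. CG6724 had 52.4, 44.2 and 66.2 FPKM in neuroblasts against 14.5 and 17.2 FPKM in neurons. The mean profile describes the members poorly one by one: okr was nearest at 0.32, with 110 other genes closer, and lok farthest at 1.79, with 3547 closer.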

How the data were processed

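Polyadenylated RNA (about 1 µg of total RNA as input) was sequenced as strand-marked libraries, per the labels' protocols. Named in the submitters' processing notes, without roles, are DESeq 1.8.3, HTSeq, Cufflinks 1.3.0, TopHat 1.4.1 and BWA 0.6.1. No source used here gives the genome build. The authors deposited FPKM per gene with a confidence interval for each library, per the file headers. The authors' deposited table holds p-values and a fold (ratio) with its log2, neuroblast over neuron per the condition columns in the file, and mean normalized signal, which was not used.

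Libraries of a technical pair were averaged, on the log2 scale for the test and as FPKM for levels. Differences were tested in R 4.3.3 by limma 3.58.1, with an intensity trend and two-sided, on log2(FPKM + 1), with Benjamini-Hochberg adjustment over the 7975 genes that reached 1 FPKM in 2 or more replicates. The scale understates changes of low genes. The script was tested on simulated data. Fragments behind a value were read from the Cufflinks upper bound, taken as 2 SD of a count above it, and cover counting error only. Nothing in the labels says whether replicates come from separate animals, so p-values measure the spread between these samples. Coordinates are those of the files, with 1 added to the start because Cufflinks counts it from 0; annotation release 115, whose build may differ from that of the files, gave names, strands and biotypes (13575 of 14210 identifiers matched). RPA3 had no match and was not analysed here. The members and lists were chosen with earlier results of these data known. From each list the text names at most 3 genes, those of lowest adjusted p, and at most 2 that passed against the list's majority; 2 genes chosen by this rule are not reported here. Also named are genes overlapping a member and the 3 nearest the members' mean profile.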

Additional observations from a re-analysis of the deposited data

How the results depend on the processing

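The limma count of members called stayed between 5 and 8 of 10 over the 19 alternatives. It was 5 with no filter and without neuron replicate 1. With no filter 1959 of 14210 genes were called toward neuroblasts and 2361 toward neurons. The members' calls lost were those of p53 (2 alternatives) and nbs (8). Mei-41 passed with a pseudocount of 5 and without the intensity trend (limma adjusted p 0.0498 and 0.0449) and mus304 with quantile normalization (0.83, limma adjusted p 0.0392). Nbs was lost with no filter (limma adjusted p 0.0887), the first technical replicate only (1.03, 0.0520), the protein-coding sum, the replicate block, the shared flow cell (0.124) and 3 omissions. The sign turned for mus304 with the protein-coding sum (-0.034) and for grp with that (-0.51), upper quartile scaling (-0.064) and quantile normalization (-0.41); the cause was not tested. The ratio of mei-41 to mus304 turned without neuroblast replicate 2 (-0.12) and neuron replicate 2 (-0.103), over a range of -0.12 to 0.36. On the shared flow cell the log2 ratio difference was -2.23 for mei-41 to tefu, 1.89 for rad50 to nbs and 0.49 for mre11 to rad50. Over all genes 5048 were called; omitting 1 replicate gave 3274 (without neuron replicate 2) to 5030. Higher in neuroblasts were 2667, against 1674 (without neuron replicate 2) to 2629 over the omissions and 1744 with the protein-coding sum, where the share of calls toward neuroblasts was 33.3% and not 52.8%. Listed genes other than the members that passed toward neurons numbered 6, death genes included, but 3 with no filter and on the shared flow cell, 12 with the protein-coding sum and 3 (without neuron replicate 2) to 7 over the omissions. Of 1024 values of 54 other named genes 989 kept their call and 35 lost it, none reversed.

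The replicate numbers are shared by neuroblast and neuron 1 and 2, but nothing in the labels pairs them. The correlation of deviations across 7975 genes was -0.52 for the pair numbered 1 and -0.39 for the pair numbered 2. It was 0.52 for neuroblast 1 with neuron 2 and 0.39 for neuroblast 2 with neuron 1. With 2 neuron replicates the deviations of one are those of the other with the sign turned, so these values are not separate checks of the pairing. With the replicate block, which gives the estimates of the fit without neuroblast 3, 6 members and 2047 and 1977 genes were called. Depth limits p53, lok and mre11 in neurons, which rest on as few as 11, 29.7 and 31.3 fragments in a library.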
